A study of Drosophila melanogaster with 35 samples.

Results

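The genes described here encode the proteins of the mitochondrial ribosome in Drosophila melanogaster. They were taken by symbol, as every gene whose symbol starts with mRpL or mRpS, plus bonsai and tko, whose symbols do not show their family. This gave 75 of the 17830 genes in the head count table, 47 of the large subunit and 28 of the small subunit, and all 75 were also found among the 13963 genes of the Ribo-Seq table. In the head libraries 74 of the 75 passed the filter on low counts. The remaining gene, mRpL53, had 0 counts in all 23 libraries, although the authors' deposited table gives it a mean RNA count of 915 in the Ribo-Seq experiment. mRpL53 overlaps the annotated genes AGO1 and CG33155, and no source used here states how reads on overlapping genes were counted. The part of this overlap in the 0 counts was not tested, so they do not show that the gene is silent in heads.

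Mitochondria carry their own ribosomes, which translate the few messages of the mitochondrial genome, all of them for subunits of the respiratory chain and the ATP synthase. The ribosomal RNAs are made inside the organelle, while every protein of the particle is encoded in the nucleus, made on cytosolic ribosomes and imported. The small subunit decodes the message and the large subunit joins the amino acids and passes the new chain to the inner membrane. Low-numbered members have counterparts in bacteria, and most high-numbered members are found only in mitochondria. In flies tko, the counterpart of the bacterial decoding protein S12, is known for mutants with seizures after mechanical shock, and bonsai, the counterpart of S15, for mutants of small size.

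The study asked how variants of KDM5, a demethylase of lysine 4 of histone H3, change transcription in the nervous system. RNA-seq was made from heads of flies carrying the missense changes A224T, L854F, D234G, R873W or Y874C, all modelled on human KDM5C variants of an intellectual disability, or the demethylase-dead change JmjC (n = 3 libraries each), or WT KDM5 (n = 5). Ribo-Seq compared neurons labelled elav;RPL3-FLAG;kdm5RNAI with neurons labelled elav;RPL3-FLAG, as IP and Input (n = 3 libraries each), so both Ribo-Seq groups carried the neuronal elav driver and the tagged ribosomal protein. Per the labels, flies were kept at 25 °C and taken 1 to 5 days after eclosion. Whether replicates were separate cultures is not said in the labels, so that the p-values rest on a spread between libraries that may be technical.

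Gene counts summed to 16787755 to 32730301 per library, except 3774003 in D234G 1 and 4921958 in D234G 2. By roX2, which is part of the male dosage compensation complex, there were 2 sets of libraries, at over 5 CPM (counts scaled to library size) in D234G, R873W, Y874C and WT 1 and 2 (set 1) and under 5 CPM in A224T, L854F, JmjC and WT 3 to 5 (set 2). Each strain was therefore compared with the WT libraries of its own set (same-set WT) and with all 5 WT libraries. Within set 2, roX1, a second RNA of this complex, did not match. It averaged 199 CPM in A224T, 90.6 CPM in L854F and 298 CPM in JmjC, against 13.4 CPM in WT 3 to 5. These log2 folds were 3.88, 2.75 and 4.46 (adjusted p of 8.65e-10 or less in edgeR's quasi-likelihood fit). In set 1 roX1 averaged 649 to 696 CPM in the strains, against 836 CPM in WT 1 and 2. Summed muscle markers reached 11102 to 16834 CPM in the set 1 strains, against 8889 to 10254 CPM in WT 1 and 2. Fat body markers spanned 9815 to 27282 CPM in the set 1 strains, against 11034 to 12571 CPM in WT 1 and 2. In the set 2 strains they spanned 32313 to 65935 CPM, against 49199 to 57467 CPM in WT 3 to 5. The fat body list includes the yolk protein genes Yp1, Yp2 and Yp3, which are expressed in females. Its calls and sums can therefore follow sex as well as tissue, here and below. The part of sex in these sums and in the sets was not tested. Markers of the male reproductive tract summed to 824 CPM in D234G 1, 570 CPM in D234G 3 and 14, 142 and 376 CPM in R873W 1, 2 and 3, against at most 1.02 CPM in WT. Neuronal and photoreceptor markers were present in every library, at 5621 CPM or more and 43471 CPM or more. Kdm5 was read at 434 to 579 CPM in every library, and counts per gene do not show the amino acid changes, so they check no label. Against same-set WT Kdm5 was higher in R873W and D234G, with log2 folds of 0.28 and 0.21. The adjusted p of edgeR's quasi-likelihood fit was 0.00588 and 0.0272, and the other strains did not pass.

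**Figure D1:**
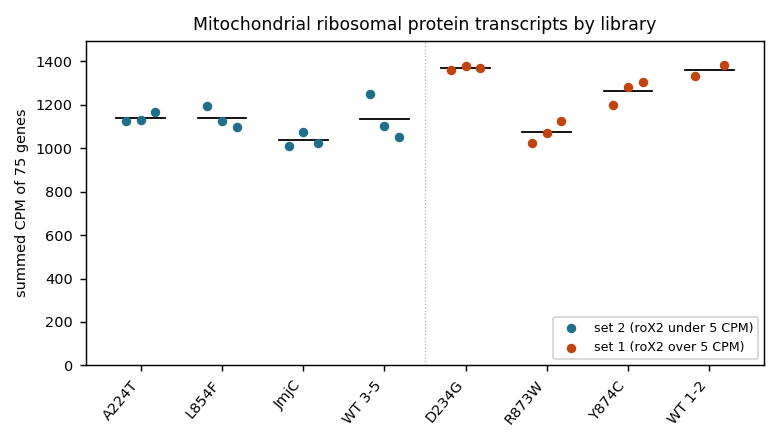
Summed CPM of the 75 genes (vertical axis, linear, from 0) in each head library, one point per library, with a line at the group mean. Set 2 strains stand left of WT 3 to 5 and set 1 strains left of WT 1 and 2, and R873W lies below both WT libraries of its set while D234G lies at their level.

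The transcripts of the 75 genes together made up 1024, 1071 and 1125 CPM in R873W, 1199, 1280 and 1305 CPM in Y874C and 1359, 1376 and 1369 CPM in D234G, against 1333 and 1383 CPM in WT 1 and 2. All R873W and Y874C libraries lay below both of these WT libraries, and D234G lay between them. In set 2 the sum was 1011, 1074 and 1022 CPM in JmjC, 1126, 1129 and 1164 CPM in A224T and 1099 to 1195 CPM in L854F, against 1248, 1101 and 1052 CPM in WT 3 to 5. The WT libraries of set 2 spread widely, and all JmjC values except that of JmjC 2 fell below them.

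WT was the 1 genotype split between the sets, and its libraries differed widely in this family. Of 74 members tested, 35 were lower and 1 was higher in WT 3 to 5 than in WT 1 and 2 in edgeR's quasi-likelihood fit (Benjamini-Hochberg adjusted), against 12.6% of all 12925 genes lower and 13% higher. The median log2 fold was -0.35 over the members and 0.00 over all genes, and the member count was 22 without WT 2. In these bulk heads, fewer cells of a type and less RNA per cell cannot be told apart. Cell type markers moved with this contrast. In WT 3 to 5, against WT 1 and 2, 5 of 8 fat body markers were higher, 8 of 12 muscle markers lower, 6 of 7 antenna markers higher, 2 of 8 photoreceptor markers lower and 3 of 8 neuronal markers lower. Summed muscle markers spanned 6664 to 7745 CPM in WT 3 to 5, against 8889 to 10254 CPM in WT 1 and 2. Antenna markers spanned 1223 to 1391 CPM in WT 3 to 5, against 707 to 761 CPM in WT 1 and 2, and photoreceptor markers 50406 to 53232 CPM in WT 3 to 5, against 60433 to 61371 CPM in WT 1 and 2. Neuronal sums overlapped, and the part of all these markers in the contrast was not tested.

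mRpS14, the counterpart of bacterial S14 near the decoding region, had 6.81, 5.63 and 4.16 CPM in WT 3 to 5, against 14.2 and 14.7 CPM in WT 1 and 2. The groups did not overlap, and the log2 fold was -1.39 ± 0.17 (SE, edgeR adjusted p = 6.64e-06). mRpL42, a large subunit protein without a bacterial counterpart, had 10.2, 7.97 and 8.33 CPM in WT 3 to 5, against 19.5 CPM in each of WT 1 and 2. It was thus lower in every library of set 2, with a log2 fold of -1.15 ± 0.14 (edgeR adjusted p = 5.43e-06). mRpL36, the counterpart of a small zinc-binding bacterial protein, fell by 1.09 (edgeR adjusted p = 1.35e-05), with 4.90, 4.48 and 3.62 CPM in WT 3 to 5, against 8.90 and 9.44 CPM in WT 1 and 2. tko had 16.6, 14.04 and 10.7 CPM in WT 3 to 5, against 21.7 and 22.3 CPM in WT 1 and 2, a log2 fold of -0.68 ± 0.14 (edgeR adjusted p = 0.00103). bonsai had 15.001, 15.2 and 17.02 CPM in WT 3 to 5, against 15.5 and 15.9 CPM in WT 1 and 2, and these ranges overlapped. The single member that was higher was mRpS5, whose bacterial counterpart lies where the message enters the small subunit. mRpS5 had 131, 115 and 107 CPM in WT 3 to 5, against 87.4 and 85.4 CPM in WT 1 and 2 (log2 fold 0.44 ± 0.14, edgeR adjusted p = 0.0212), and it did not pass without WT 1, WT 2 or WT 3 (0.0976, 0.141 and 0.0847).

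**Figure D2:**
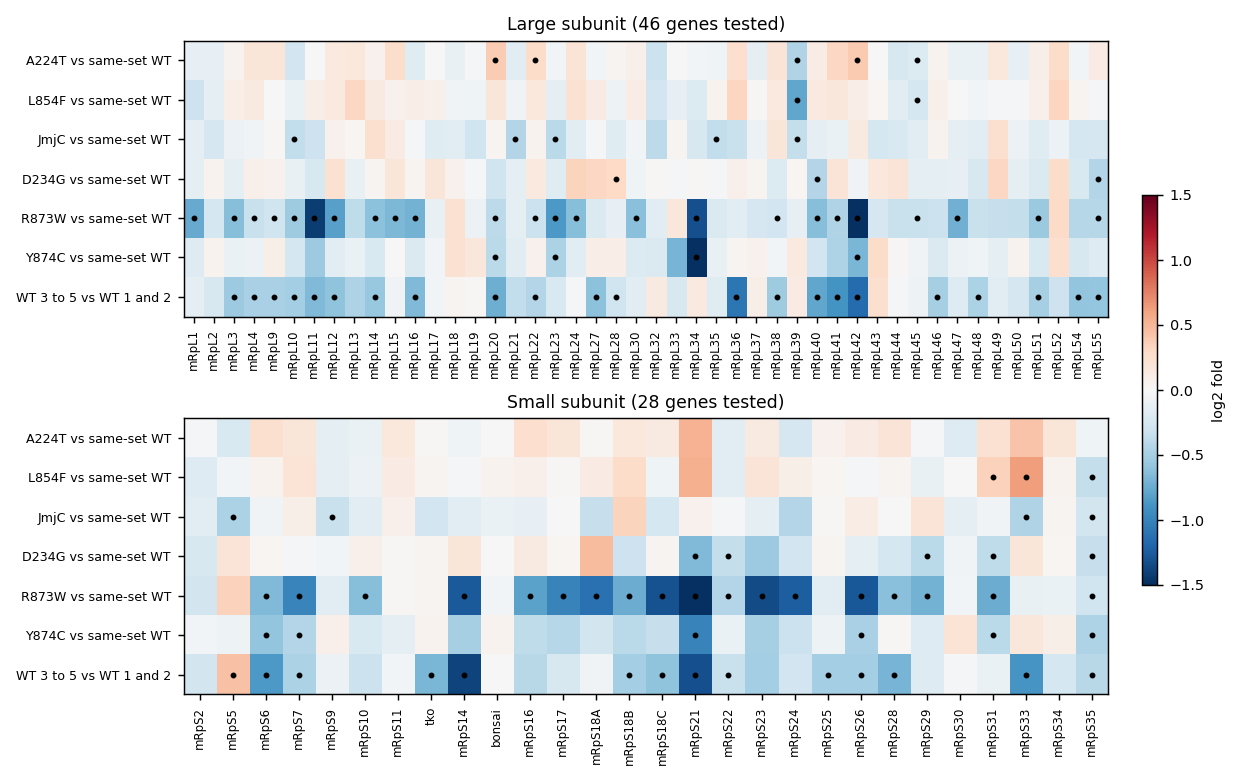
Log2 folds (colour, blue lower, red higher, values beyond 1.5 in either direction shown at the end of the scale) of the 74 members tested, in columns ordered by protein number, large subunit above and small subunit below. Rows are the 6 strains over same-set WT and WT 3 to 5 over WT 1 and 2, and dots mark an edgeR adjusted p under 0.05. The R873W row holds 42 dots, all on blue fields.

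R873W showed the broadest fall of the family. Against WT 1 and 2, 42 of 74 members fell and 0 rose in edgeR's quasi-likelihood fit (Benjamini-Hochberg adjusted), against 18.5% of all genes lower and 16.9% higher, and the median log2 fold was -0.39 over the members and 0.03 over all genes. In 54 members every R873W library lay below both WT libraries, which held for 27.9% of all genes. Both subunits, as assigned by symbol, took part, with 24 of 46 large and 18 of 28 small subunit genes. The same members against all 5 WT libraries gave 28 that fell and 2 that rose, against 21.8% and 21.9% of all genes. R873W 2 and R873W 3 held male reproductive tract transcripts at 142 and 376 CPM, and R873W 1 held 14 CPM, against at most 1.02 CPM in WT. A fit without R873W 2 and R873W 3 leaves 1 library, which still holds such transcripts, so its calls are not given. Cell type markers moved in R873W as well, with 4 of 8 fat body, 6 of 12 muscle, 3 of 8 neuronal and 16 of 17 male reproductive tract markers that rose against same-set WT, and none of these that fell. Summed fat body markers spanned 21718 to 27282 CPM in R873W, against 11034 to 12571 CPM in WT 1 and 2, and muscle markers 13089 to 15144 CPM in R873W, against 8889 to 10254 CPM in WT 1 and 2. Neuronal markers spanned 9439 to 10653 CPM in R873W, against 7529 to 7887 CPM in WT 1 and 2. Antenna markers were at 483 to 581 CPM in R873W, against 707 to 761 CPM in WT 1 and 2, and photoreceptor markers at 49210 to 55883 CPM in R873W, against 60433 to 61371 CPM in WT 1 and 2. The part of these markers in the fall was not tested. R873W also had the highest sums of mitochondrial genome transcripts, 99639, 120945 and 95801 CPM, against 66393 and 70388 CPM in WT 1 and 2.

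The member with the smallest p was mRpL42. It had 5.82, 6.02 and 7.85 CPM in R873W, against 19.5 CPM in each of WT 1 and 2. All R873W values lay below the lowest WT value of either set, and the log2 fold over same-set WT was -1.58 ± 0.14 (edgeR adjusted p = 1.2e-07). mRpS26, a small subunit protein found only in mitochondria, had 5.87, 7.14 and 8.32 CPM in R873W, against 17.4 and 16.5 CPM in WT 1 and 2. The groups were far apart, with a log2 fold of -1.27 ± 0.15 (edgeR adjusted p = 6.04e-06), and R873W also lay below the 11.4 to 12.6 CPM of WT 3 to 5. mRpS14 had 4.98, 6.65 and 6.66 CPM in R873W, against 14.2 and 14.7 CPM in WT 1 and 2 (log2 fold -1.26 ± 0.17, edgeR adjusted p = 1.89e-05). For mRpS14 the R873W values lay inside the 4.16 to 6.81 CPM of WT 3 to 5, and against all WT the fold of -0.58 did not pass (edgeR adjusted p = 0.117).

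Against all 5 WT libraries mRpS31, mRpS26 and mRpS18A had the smallest p among the falls. mRpS31, a mitochondria-specific protein of the small subunit, had 8.98, 9.43 and 8.40 CPM in R873W, against 12.4 to 15.1 CPM over the 5 WT libraries. Its log2 folds were -0.74 against same-set WT and -0.67 against all WT (edgeR adjusted p = 0.000119 and 5.37e-05). mRpS18A, 1 of 3 members related to bacterial S18, had 3.42, 3.82 and 4.63 CPM in R873W, against 7.18 to 9.02 CPM over the 5 WT libraries, a log2 fold of -1.08 against all WT (edgeR adjusted p = 0.000135). The related mRpS18B and mRpS18C fell as well against same-set WT. In mammalian structures the counterparts of mRpS18A and mRpS30 sit in the large subunit, although their names place them in the small one. mRpS29, the counterpart of the mammalian GTP-binding death-associated protein, fell by 0.71 against same-set WT and by 0.58 against all WT (edgeR adjusted p = 0.000138 and 0.000185). Of the stalk and its base, which hold the translation factors on the large subunit, mRpL11 fell by 1.42 and mRpL12 by 0.81 against same-set WT (edgeR adjusted p = 1.97e-05 and 0.000263). Both fell against all WT too, by 1.06 and 0.47 (edgeR adjusted p = 0.000499 and 0.0231). mRpL11 had 3.47, 3.05 and 3.73 CPM in R873W, against 8.90 and 9.28 CPM in WT 1 and 2 and at least 5.61 CPM in WT 3 to 5. mRpL10 fell by 0.53 against same-set WT (edgeR adjusted p = 0.00231) and not past the threshold against all WT (-0.23, 0.174). Only mRpL52 and tko rose against all WT. mRpL52, a mitochondria-specific large subunit protein, had 13.2, 12.0 and 14.4 CPM in R873W, against 7.002 to 11.1 CPM over WT (log2 fold 0.48, edgeR adjusted p = 0.00301), and did not pass against same-set WT (0.29, 0.0865). tko had 23.7, 23.1 and 22.02 CPM in R873W, against 21.7 and 22.3 CPM in WT 1 and 2, and its rise of 0.43 against all WT (edgeR adjusted p = 0.0399) was 0.05 against same-set WT (0.814). bonsai had 14.8, 14.4 and 17.1 CPM in R873W and 15.001 to 17.02 CPM over WT, overlapping ranges with a same-set log2 fold of -0.04 (edgeR adjusted p = 0.812).

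**Figure D3:**
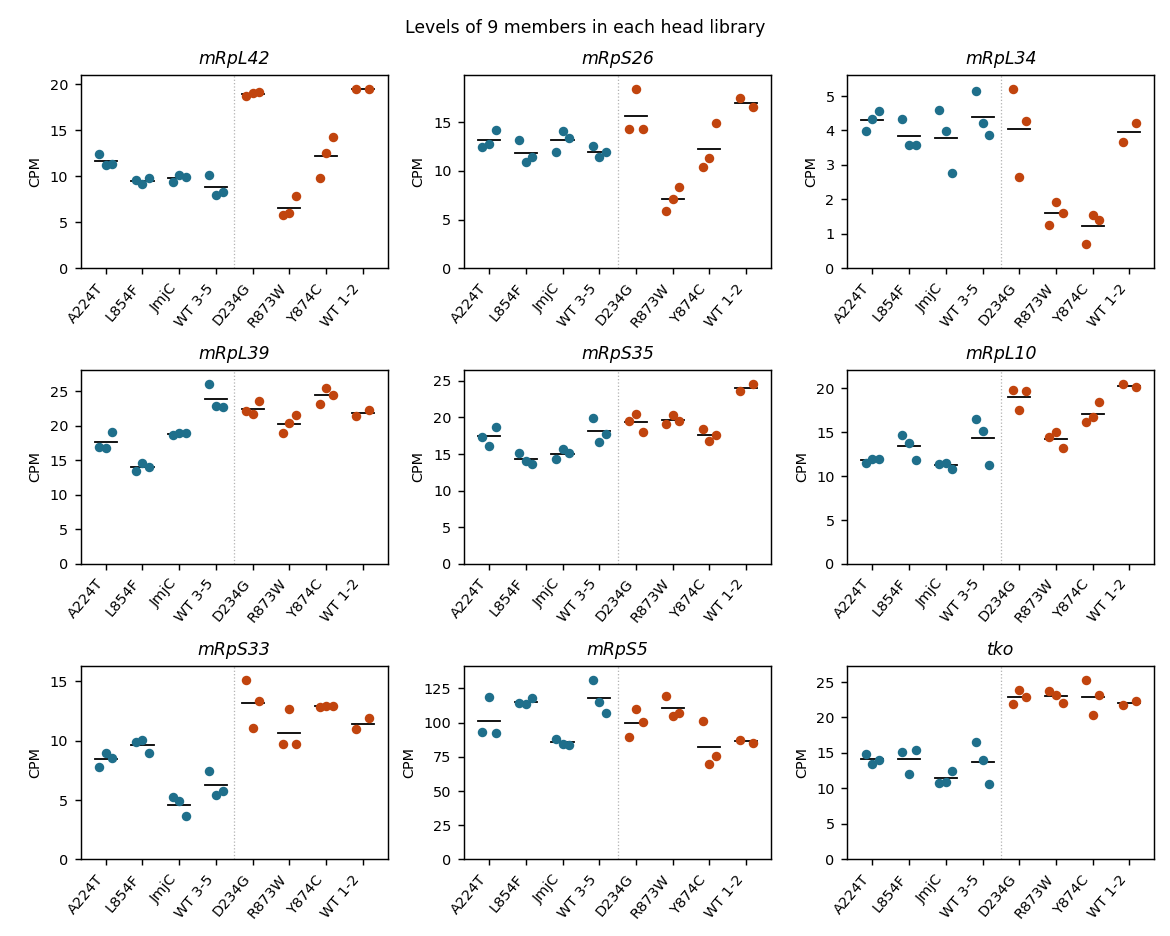
CPM (vertical axes, linear, from 0) of 9 members in each head library, one point per library with a line at the group mean, set 2 left and set 1 right of the dotted line, strains left of the WT libraries of their set. R873W stands lowest for mRpL42 and mRpS26, both R873W and Y874C for mRpL34, and all set 2 strains lie below WT 3 to 5 for mRpL39.

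In Y874C 10 of 74 members fell and 0 rose against same-set WT in edgeR's quasi-likelihood fit (Benjamini-Hochberg adjusted), against 5.83% of all genes lower and 5.8% higher. The median log2 fold was -0.14 over the members and 0.00 over all genes, and 27 members lay below both WT libraries in every Y874C library, against 19.9% of all genes. The member count was 6 without Y874C 1 and 4 without WT 1 or without WT 2. Against all WT, 6 rose and 2 fell, against 9.27% and 10% of all genes, and the count changed to 3 without Y874C 2, WT 3 or WT 4, to 2 without Y874C 3, to 14 without WT 2, to 5 without WT 5 and to 1 when only WT and Y874C were in the fit. Against same-set WT, 4 of 8 fat body and 4 of 12 muscle markers rose and 4 of 7 antenna markers fell in Y874C, and their part in these counts was not tested.

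mRpL34, the counterpart of a very short basic protein of the bacterial large subunit, was the most changed member in Y874C. It had 0.703, 1.54 and 1.41 CPM in Y874C and 1.24, 1.93 and 1.61 CPM in R873W, against 3.67 and 4.22 CPM in WT 1 and 2. The values of both strains lay below every other library of the study. The log2 fold in Y874C was -1.70 ± 0.30 against same-set WT (edgeR adjusted p = 0.000789) and -1.78 against all WT (9.94e-05), and in R873W it was -1.32 ± 0.30 against same-set WT (0.00218). The gene spans 2R 16098948 to 16099337 in dm6 and overlaps the gene CG8414. mRpS35, a mitochondria-specific small subunit protein, had 18.4, 16.8 and 17.6 CPM in Y874C, against 23.5 and 24.5 CPM in WT 1 and 2, with no overlap (log2 fold -0.46 ± 0.09, edgeR adjusted p = 0.00133). mRpL42 had 9.85, 12.5 and 14.3 CPM in Y874C, against 19.5 CPM in each of WT 1 and 2 (log2 fold -0.68 ± 0.14, edgeR adjusted p = 0.00213). mRpS31 fell by 0.41 against same-set WT and by 0.34 against all WT (edgeR adjusted p = 0.0288 and 0.0214), the second of which was lost without Y874C 1 or Y874C 3. mRpL52, mRpL22, which lines the exit tunnel in bacterial ribosomes, and mRpS33 rose against all WT by 0.44, 0.32 and 0.63 and had same-set folds of 0.25, 0.07 and 0.16 that did not pass (edgeR adjusted p = 0.239, 0.687 and 0.577). tko had 25.3, 20.3 and 23.2 CPM and bonsai 17.4, 15.8 and 15.8 CPM in Y874C, both overlapping WT 1 and 2.

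D234G carried few changes of the family among many changes of other genes. Against same-set WT 7 members fell and 1 rose in edgeR's quasi-likelihood fit (Benjamini-Hochberg adjusted), against 11.6% of all genes lower and 22.1% higher, with a median log2 fold of -0.01 over the members and 0.03 over all genes. A fit without D234G 1 and D234G 3, which held the male reproductive tract transcripts, leaves only D234G 2, with 4921958 counts. A fit without D234G 1 and D234G 2, the libraries with few counts, leaves only D234G 3. With 1 library left, neither fit can show what these libraries contribute, and their calls are not given. The count was 4 without D234G 3 and 3 without WT 2. Against all WT 15 rose and 2 fell, against 25.3% and 19% of all genes, and 16 rose and 0 fell when libraries were scaled by their totals alone. This count was 6, 9 and 10 without D234G 1, 2 and 3, and 4 when only WT and D234G were in the fit.

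mRpS35 had 19.5, 20.4 and 17.98 CPM in D234G, against 23.5 and 24.5 CPM in WT 1 and 2, and every D234G library was lower (log2 fold -0.35 ± 0.09, edgeR adjusted p = 0.00711). mRpL40 and mRpL55, both mitochondria-specific proteins of the large subunit, fell by 0.43 and 0.44 (edgeR adjusted p = 0.00992 and 0.0101). mRpL40 had 10.2, 12.1 and 13.3 CPM in D234G, against 15.2 and 16.998 CPM in WT 1 and 2. These 3 calls were lost without D234G 3 for mRpS35 and mRpL55 and without WT 2 for mRpL40. mRpL28 was the 1 member that rose, with 73.2, 77.9 and 73.7 CPM in D234G, against 57.2 and 63.2 CPM in WT 1 and 2 (log2 fold 0.29 ± 0.10, edgeR adjusted p = 0.0269). It passed in no fit that left out 1 D234G or same-set WT library, and against all WT its fold was 0.48 (edgeR adjusted p = 0.000444). mRpL22 and mRpL27, whose bacterial counterpart reaches the peptidyl transferase centre, rose against all WT by 0.42 and 0.66 (edgeR adjusted p = 0.00351 and 0.00411), with same-set folds of 0.15 and 0.31 that did not pass (0.175 and 0.153). mRpS31 and mRpS29 fell against all WT by 0.30 and 0.28 (edgeR adjusted p = 0.0289 and 0.0355) and against same-set WT by 0.38 and 0.41 (0.0269 and 0.0143). The all-WT call of mRpS31 was lost without D234G 2, D234G 3 or WT 3, and that of mRpS29 without D234G 1. tko had 21.9, 23.9 and 22.9 CPM and bonsai 15.4, 15.5 and 16.2 CPM in D234G, each overlapping WT 1 and 2.

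In JmjC 9 of 74 members fell and 0 rose against WT 3 to 5 in edgeR's quasi-likelihood fit (Benjamini-Hochberg adjusted), close to the 14% of all genes lower and under the 10% higher, with a median log2 fold of -0.14 over the members and 0.00 over all genes. The split depended on the scaling. By library totals alone the median of all genes moved to 0.17 and that of the members to 0.04, and 6 members rose and 1 fell, so relative to all genes the members stayed lower. The count of 9 was 5, 4 and 3 without JmjC 1, 2 and 3, and 3 without WT 3. Against all WT 18 fell and 0 rose, against 14.8% and 12.1% of all genes. This count was 8, 10 and 8 without JmjC 1, 2 and 3, 11 without WT 2, 5 by library totals alone and 4 when only WT and JmjC were in the fit. In JmjC 4 of 8 fat body, 4 of 7 antenna, 5 of 8 neuronal and 3 of 8 photoreceptor markers fell against same-set WT, and their part in these counts was not tested.

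mRpL39, a mitochondria-specific protein of the large subunit, had 18.7, 19.0 and 19.0 CPM in JmjC, against 26.0, 22.9 and 22.7 CPM in WT 3 to 5. The groups did not overlap and the log2 fold was -0.35 ± 0.07 (edgeR adjusted p = 0.00153), or -0.17 by library totals alone (0.145). mRpS9, whose bacterial counterpart reaches the tRNA in the peptidyl site, had 45.2, 47.8 and 45.3 CPM in JmjC, against 61.0, 57.8 and 53.4 CPM in WT 3 to 5. It was lower in every JmjC library (log2 fold -0.33 ± 0.07, edgeR adjusted p = 0.00186; -0.15 by library totals alone, 0.104). mRpS5 had 88.4, 84.6 and 83.7 CPM in JmjC, against 131, 115 and 107 CPM in WT 3 to 5 (log2 fold -0.48 ± 0.12, edgeR adjusted p = 0.00646). The JmjC values of mRpS5 were at the level of WT 1 and 2, which held 87.4 and 85.4 CPM. Of the stalk, mRpL10 fell by 0.37 (edgeR adjusted p = 0.0213), with 11.3, 11.5 and 10.9 CPM in JmjC, against 16.6, 15.1 and 11.2 CPM in WT 3 to 5, so that WT 5 lay within the JmjC range. The stalk members mRpL11 and mRpL12 had log2 folds of -0.31 and 0.06 that did not pass (edgeR adjusted p = 0.228 and 0.789). mRpL21, of the large subunit, fell by 0.44 (edgeR adjusted p = 0.0178), and its fold of -0.59 against all WT, with that of mRpS35 (-0.44), was among those with the smallest p there (0.00372 and 0.00399). tko had 10.8, 10.9 and 12.5 CPM in JmjC, against 16.6, 14.04 and 10.7 CPM in WT 3 to 5. It fell by 0.58 against all WT (edgeR adjusted p = 0.0154), while the same-set fold of -0.29 did not pass (0.113). bonsai, with 13.9, 15.6 and 14.9 CPM in JmjC, overlapped the 15.001, 15.2 and 17.02 CPM of WT 3 to 5.

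A224T and L854F changed few members, and mRpL39 led both. Against same-set WT, 2 members rose and 3 fell in L854F in edgeR's quasi-likelihood fit (Benjamini-Hochberg adjusted), against 4.8% of all genes higher and 5.49% lower. In A224T 3 rose and 2 fell by the same test, against 7.18% and 9.1%. The median log2 folds were 0.04 and 0.03 over the members and 0.01 and 0.00 over all genes. By library totals alone the A224T split became 10 that rose and 1 that fell, with the median of all genes at 0.12 and that of the members at 0.15, and the L854F split became 2 and 2. The A224T count was 3 without A224T 1, WT 4 or WT 5 and 2 without A224T 3, and the L854F count was 3 without L854F 1 or WT 4. Against all WT 0 rose and 3 fell in each strain, against 4.38% of all genes higher and 3.41% lower in L854F and 7.19% higher and 7.57% lower in A224T. The A224T count against all WT was 1 without A224T 1 or A224T 3, 6 without WT 4 and 9 without WT 5, and the L854F count was 7 without WT 5. Each was 1 when only WT and the strain were in the fit.

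mRpL39 had 13.5, 14.6 and 14.01 CPM in L854F, against 26.0, 22.9 and 22.7 CPM in WT 3 to 5. Every L854F value lay below all other libraries of the study, and the log2 fold was -0.78 ± 0.07 (edgeR adjusted p = 1.59e-06). In A224T it had 16.96, 16.9 and 19.2 CPM, again below every WT library (log2 fold -0.45 ± 0.07, edgeR adjusted p = 0.000306). The WT sets differed by 0.12 in this gene and not past the threshold (edgeR adjusted p = 0.32), and it kept its call in L854F and A224T in every fit that left out 1 library. mRpL39 spans 3L 14997981 to 14999666 in dm6 and overlaps the gene Zip71B. mRpL45, which in mammals lies by the exit tunnel and contacts the inner membrane, fell by 0.27 in L854F and by 0.21 in A224T (edgeR adjusted p = 0.0127 and 0.0376). It had 25.9, 26.4 and 26.5 CPM in L854F and 27.0, 28.5 and 26.8 CPM in A224T, against 34.6, 29.7 and 30.0 CPM in WT 3 to 5. The call was lost in L854F without L854F 1 or WT 3, and in A224T without A224T 1, A224T 3 or WT 3. mRpS35 had 15.1, 14.03 and 13.7 CPM in L854F, against 19.9, 16.7 and 17.7 CPM in WT 3 to 5, with no overlap (log2 fold -0.35 ± 0.08, edgeR adjusted p = 0.00665). In A224T mRpS35 differed by -0.07 (edgeR adjusted p = 0.644). mRpL10 fell by 0.50 in A224T against all WT (edgeR adjusted p = 0.0187), and the call was lost without any 1 of the A224T libraries. Its same-set fold of -0.29 did not pass (0.0814).

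The rises in L854F were mRpS33 and mRpS31. mRpS33, of the small subunit, had 9.91, 10.1 and 8.92 CPM in L854F, against 7.41, 5.46 and 5.79 CPM in WT 3 to 5 (log2 fold 0.62 ± 0.15, edgeR adjusted p = 0.00831), and the call was lost without WT 4 (0.0551). JmjC went the other way in this gene, with 5.23, 4.95 and 3.64 CPM and a log2 fold of -0.45 ± 0.15 (edgeR adjusted p = 0.0363). mRpS31 rose by 0.35 in L854F (edgeR adjusted p = 0.0424) and lost the call without L854F 1, L854F 2, WT 4 or WT 5. In A224T mRpL22, mRpL20 and mRpL42 rose by 0.28, 0.38 and 0.39 (edgeR adjusted p = 0.013, 0.0268 and 0.0408). mRpL22 had 17.96, 19.6 and 20.3 CPM in A224T, against 16.02, 16.2 and 15.2 CPM in WT 3 to 5. Each of these 3 calls was lost when WT 5 was left out. tko and bonsai differed in A224T and L854F by log2 folds between -0.01 and 0.06 and did not pass (edgeR adjusted p of 0.809 or more).

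Over the 6 strains against same-set WT, 48 of 74 members (64.9%) fell in at least 1 strain and 26 in none, beside 37.8% of all 12925 genes that fell in at least 1. Falls in 3 or more strains were held by 6 members (8.11%) and by 6.85% of all genes. Of the 48, 31 fell in 1 strain, 11 in 2, 5 in 3 and 1, mRpS35, in 5, all but A224T. The others that fell in 3 were mRpL23 (JmjC, R873W and Y874C), mRpL39 (A224T, L854F and JmjC), mRpL45 (A224T, L854F and R873W), mRpS21 and mRpS31 (both D234G, R873W and Y874C). Strains of 1 set share their WT libraries, so counts within a set are not independent. Between the sets, which share none, R873W and JmjC shared mRpL10, mRpL23 and mRpS35, which were 7.14% of the 42 members that fell in R873W and 33.3% of the 9 that fell in JmjC. Over all genes the shared falls were 14.8% of those in R873W and 19.6% of those in JmjC. These shares rest on unlike rates, since 56.8% of members and 18.5% of all genes fell in R873W. The 33.3% was thus lower than the rate of falls in R873W over all members. In JmjC 12.2% of members and 14% of all genes fell. mRpL23, whose bacterial counterpart borders the tunnel exit, had 13.2, 13.4 and 13.04 CPM in JmjC, against 20.1, 17.3 and 14.5 CPM in WT 3 to 5. In set 1 it had 11.3, 9.93 and 12.4 CPM in R873W and 14.7, 15.2 and 14.1 CPM in Y874C, against 18.2 and 22.3 CPM in WT 1 and 2. The libraries of all 3 strains lay below their WT, with log2 folds of -0.40, -0.87 and -0.47 (edgeR adjusted p = 0.0333, 0.000188 and 0.0378). mRpS21 had 4.80, 3.28 and 6.70 CPM in R873W, 6.29, 7.60 and 7.37 CPM in Y874C and 5.99, 11.04 and 9.53 CPM in D234G, against 13.97 and 14.2 CPM in WT 1 and 2. Its log2 folds were -1.53, -1.0 and -0.67 (edgeR adjusted p = 3.53e-05, 0.00377 and 0.0277). WT 3 to 5 held 6.28, 5.35 and 5.43 CPM of mRpS21, within the range of the set 1 strains. tko and bonsai were called in no strain against same-set WT.

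Strains of 1 set were also compared with each other, which needs no WT library. Among D234G, R873W and Y874C, 51 of 74 members differed in the F-test of edgeR (Benjamini-Hochberg adjusted), against 56.7% of all genes, and mRpL42, mRpS14 and mRpL24 had the smallest p. mRpL24, whose bacterial counterpart starts the assembly of the large subunit, had 35.1, 39.0 and 34.9 CPM in D234G, 18.3, 16.6 and 20.3 CPM in R873W and 20.5, 28.8 and 27.5 CPM in Y874C (edgeR adjusted p = 2.23e-05). D234G was the highest in each library. In pairs, chosen after the data were seen, 42 members were lower and 0 higher in R873W than in D234G, against 28.1% and 16% of all genes, with medians of -0.36 over the members and -0.11 over all genes. A fit without D234G 1 and D234G 3 leaves 1 D234G library, so its calls are not given. In R873W against Y874C 39 were lower and 2 higher, against 13.4% and 13.5% of all genes. The count was 23 without R873W 1, 25 without Y874C 2 and 23 without Y874C 3. A block on replicate number left 2 members called in R873W against Y874C and lowered the F-test count as well. In D234G against Y874C 12 were higher and 2 lower, against 25.3% and 13.8% of all genes.

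Among A224T, L854F and JmjC 9 members differed by the same F-test, against 24.2% of all genes, and mRpS33, mRpL39 and mRpL36 had the smallest p (edgeR adjusted p = 7.94e-05, 0.000869 and 0.00189). This count was 5 without A224T 1 or JmjC 2 and 4 without A224T 3, JmjC 1 or JmjC 3. mRpL36 had 3.66, 3.81 and 2.93 CPM in JmjC, 4.97, 5.03 and 5.67 CPM in A224T and 5.63, 5.20 and 5.48 CPM in L854F, with JmjC lowest in every library. Against the mean of A224T and L854F, a contrast chosen after the data were seen, 13 members were lower and 2 higher in JmjC, against 12.8% and 10.3% of all genes. By library totals alone the split was 2 and 2, and the count was 4, 5 and 5 without JmjC 1, 2 and 3, 7 without A224T 2 or L854F 1 and 8 without A224T 3. mRpS33 led this contrast at a log2 fold of -0.97 ± 0.13 (edgeR adjusted p = 3.59e-05), and mRpL39 was higher in JmjC by 0.26 (0.00616), beside its falls of 0.45 in A224T and 0.78 in L854F.

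**Figure D4:**
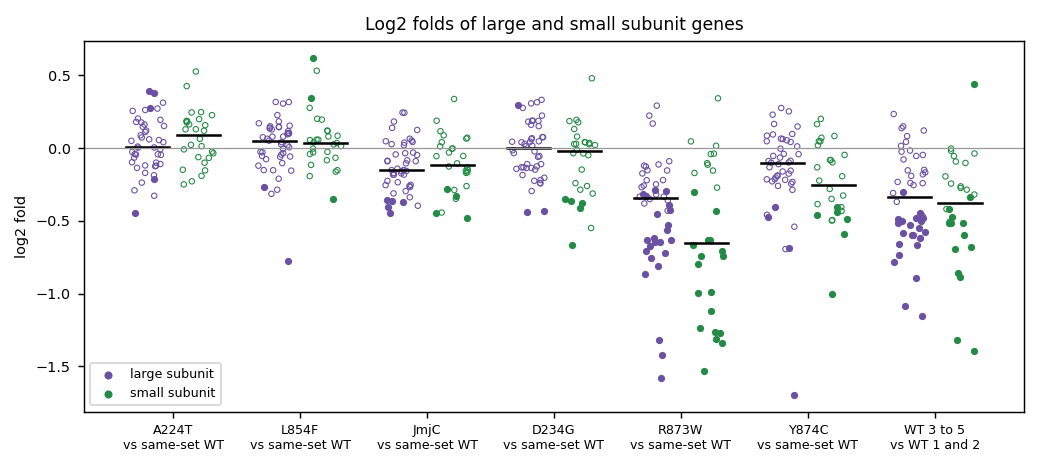
Log2 folds (vertical axis) of large subunit genes (purple) and small subunit genes (green) in the 6 strains over same-set WT and in WT 3 to 5 over WT 1 and 2, filled where the edgeR adjusted p is under 0.05, with a black line at the median. In R873W the median is -0.65 for the small and -0.34 for the large subunit.

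Subunits were assigned by symbol, so mRpS18A and mRpS30 count as small subunit genes throughout. Within the family, the fall in R873W had a median of -0.65 over the 28 small subunit genes. It was -0.34 over the 46 large subunit genes tested, a difference given as a description only. In Y874C the medians were -0.25 and -0.11, in WT 3 to 5 against WT 1 and 2 they were -0.38 and -0.34, and in JmjC -0.12 and -0.15. Members whose genomic span is up to 1000 bases (42 of 74) had a median of -0.62 in R873W, with 27 that fell, and the 32 longer members had -0.31, with 15 that fell. Over all genes of the same spans the R873W medians were 0.13 and 0.00. In other comparisons short genes at large moved in either direction. Against same-set WT the median over all short genes was 0.15 in A224T and in L854F and 0.48 in D234G. It was 0.00 in JmjC and -0.07 in Y874C. In R873W against D234G the median was -0.50 over the short members and -0.93 over all short genes, 43.2% of which were lower, and in WT 3 to 5 against WT 1 and 2 these medians were also -0.50 for short members and -0.10 for all short genes. The 12 members on the X chromosome had a median of -0.52 in WT 3 to 5 against WT 1 and 2, with 8 lower, against -0.31 over the 62 autosomal members. Of the 75 members, 44 overlap another annotated gene, among them mRpL10, mRpL23, mRpL34, mRpL39, mRpL42, mRpS14, mRpS31 and mRpS33, and their counts are uncertain because no source used here states the strand setting of the counting. In R873W 25 of 43 tested members with an overlap and 17 of 31 without one fell. mRpS26, mRpS35, mRpS18A, mRpL36, mRpS5 and tko overlap none.

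Other genes of mitochondrial translation were counted in R873W and JmjC, where 18.5% and 14% of all genes fell and 16.9% and 10% rose against same-set WT. Of 9 mitochondrial translation factors, 2 fell and 0 rose in R873W against same-set WT, with a median of -0.28. These were mEFG1, the elongation factor that moves the ribosome along the message, with 14.8 ± 0.386 CPM in R873W (SD, n = 3) against 20.9 ± 0.221 CPM in WT 1 and 2 (n = 2), and mEFTu1, which delivers the aminoacyl-tRNA. The log2 folds were -0.51 and -0.31 (edgeR adjusted p = 0.00236 and 0.0182). In JmjC mEFG1 fell as well, by 0.54 (edgeR adjusted p = 0.00101), and mEFTu2 rose by 0.36 (0.0475). Of 15 mitochondrial aminoacyl-tRNA synthetases 1 rose and 2 fell in each of R873W and JmjC, and LeuRS-m, which charges the leucine tRNA, fell in both (-0.30 and -0.36). Of 12 nuclear factors for mitochondrial nucleic acids tested, 1 rose and 6 fell in R873W, and 1 rose and 2 fell in JmjC. Lrpprc2, an RNA-binding protein of mitochondrial translation, fell by 0.68 in R873W (edgeR adjusted p = 0.00062) and rose by 0.66 in JmjC (0.000389). Transcripts of the mitochondrial genome, the messages and ribosomal RNAs that these ribosomes work with, held 8 of 15 that rose and 0 that fell in R873W, and 0 that rose and 7 that fell in JmjC. mt:CoII, a subunit of cytochrome oxidase, had 5574 ± 792 CPM in R873W (SD, n = 3) against 2389 ± 79.4 CPM in WT 1 and 2 (n = 2), a log2 fold of 1.21 ± 0.22 (edgeR adjusted p = 0.000429). In JmjC mt:ND4 of complex I averaged 364 ± 211 CPM, against 795 ± 118 CPM in WT 3 to 5 (SD, n = 3 each), and its log2 fold was -1.14 ± 0.27 (edgeR adjusted p = 0.00425).

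With neuronal kdm5 knockdown few members changed in the authors' deposited table, which gives folds of knockdown over control without values per library. Its column names do not say which of the IP and Input libraries gave each fold. The RNA folds may therefore not be of neurons alone. Kdm5 itself had a log2 fold of -0.97 in RNA and -2.02 in ribosome footprints in the authors' deposited table. RNA of the 75 members was lower for 3 and higher for 0 in the authors' deposited table at its adjusted p under 0.05, against 10.7% and 10.1% of all genes. Footprints were higher for 4 and lower for 2, against 7.2% and 17.9% of all genes in the authors' deposited table. Translation efficiency was higher for 6 and lower for 3, against 9.64% and 17.2% in the authors' deposited table. The member medians in the authors' deposited table were -0.10 for RNA, 0.05 for footprints and 0.07 for translation efficiency, and those of all genes were -0.05, -0.06 and -0.07. The translation efficiency column is not the footprint fold minus the RNA fold. In the authors' deposited table it lay within 0.1 of that difference for 36 members and within 0.1 of the footprint fold itself for 69 of 75, so it largely repeats the footprints.

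**Figure D5:**
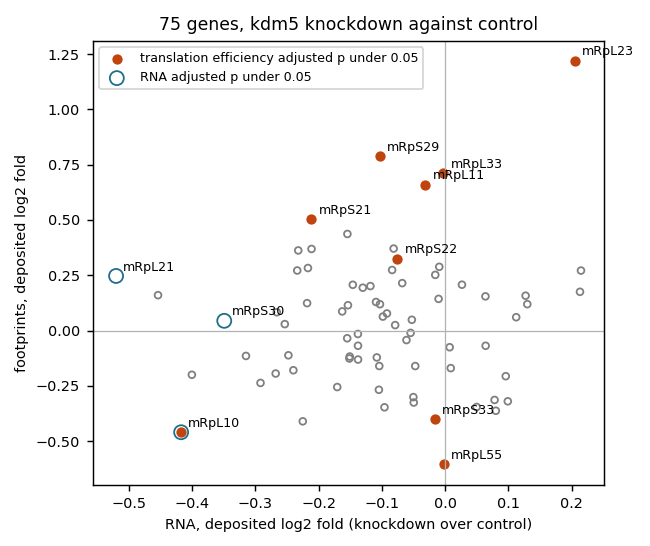
Deposited log2 folds of kdm5 knockdown over control for the 75 genes, RNA on the horizontal and ribosome footprints on the vertical axis, one point per gene. Filled points passed for translation efficiency and ringed points for RNA at the deposited adjusted p under 0.05, and mRpL23 stands alone at the top with a footprint fold of 1.22.

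mRpL23 had the largest footprint rise of the family in the authors' deposited table, a log2 fold of 1.22 (deposited adjusted p = 2.39e-07), with 1.39 for translation efficiency and 0.20 for RNA, which did not pass (0.345). mRpS29 and mRpL11, whose bacterial counterpart forms the base of the stalk, followed at footprint folds of 0.79 and 0.66 in the authors' deposited table (deposited adjusted p = 0.00111 and 0.0191), with translation efficiency at 0.90 and 0.78. mRpL33 also passed in footprints in the authors' deposited table, at 0.71. mRpS22 and mRpS21 passed in translation efficiency alone in the authors' deposited table, at 0.37 and 0.58. mRpL10 of the stalk was lower in RNA (-0.42), footprints (-0.46) and translation efficiency (-0.47) in the authors' deposited table. mRpL55 was lower in footprints (-0.60) and translation efficiency (-0.64), and mRpS33 in translation efficiency (-0.41), in the authors' deposited table. mRpL21 and mRpS30 were lower in RNA, at -0.52 and -0.35 in the authors' deposited table. tko and bonsai did not pass in any of the 3 measures in the authors' deposited table, with footprint folds of 0.21 and 0.09.

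Some members named in the head comparisons were also called with neuronal kdm5 knockdown. The share of all genes called in both experiments is not given here. mRpS33, lower in RNA in JmjC than in A224T and L854F heads, was lower in translation efficiency in the authors' deposited table. That is an unlike measure, and mRpS33 did not pass there in RNA or footprints. mRpL21, which fell in JmjC, was lower in RNA in the authors' deposited table. mRpL23, which fell in JmjC, R873W and Y874C heads, had the footprint rise given above from the authors' deposited table. mRpL39, mRpL42, mRpL34 and mRpS35 had RNA folds of 0.21, 0.06, -0.05 and 0.13 in the authors' deposited table, and none of these 4 passed. mRpL10 was lower with kdm5 knockdown in the authors' deposited table and fell in R873W and JmjC heads against same-set WT. The other mitochondrial translation lists held few calls too. Among 9 translation factors in the authors' deposited table, none (0) passed in RNA or footprints and 1 was lower in translation efficiency, and of 15 aminoacyl-tRNA synthetases 2 were lower in RNA, 1 higher in footprints, and 1 higher and 3 lower in translation efficiency. Of 14 nucleic acid factors 1 was lower in each measure, and of 13 mitochondrial genome transcripts 1 was lower in translation efficiency, in the authors' deposited table.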

How the data were processed

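Raw counts per gene in 23 head libraries came from the authors' deposited table. Tools named in the submitters' processing notes are featureCounts, STAR, fastp and DESeq2, with the build dm6. No source used here gives the strand setting or the annotation release. Transposable element insertions, which held 0.764 to 1.52% of counts, were left out. For Ribo-Seq the authors' deposited table held log2 folds (read as log2 because DESeq2 is listed), adjusted p-values, mean counts used as a signal level, and transcript positions. The count test planned for Ribo-Seq was not run, because no counts per library were used here. The transcript with the highest mean RNA count stood for each gene.

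Head counts were fitted in edgeR 4.0.16 (R 4.3.3, limma 3.58.1) with TMM scaling, filterByExpr and the quasi-likelihood F-test, over 7 groups for all-WT comparisons (12093 genes) and 8 groups, WT split by set, for the others (12925 genes). Calls were made at 0.05 after Benjamini-Hochberg adjustment over all genes, and each adjusted p printed for heads is from that test. Errors of folds are SE. CPM are TMM-scaled. Alternatives were DESeq2 1.42.0, library totals alone, no filter, fewer libraries in the fit, a replicate block and leaving libraries out. Replicates all differed beyond sampling noise, with chi-square per degree of freedom at 7.22 to 77.8 within a set. The highest values, 77.8 and 58.7, were those of Y874C 1 against Y874C 2 and Y874C 3, and other pairs within a set reached at most 31.6. For WT pairs between the sets the chi-square per degree of freedom was 109 to 139. The test was checked on simulated data. Tables and figures used Python 3.11.15, pandas 2.3.3, numpy 2.4.6 and matplotlib 3.10.9. Member positions came from the authors' deposited Ribo-Seq table and overlaps from the RefSeq gene table of Release 6, and RefSeq sequences were not used here.

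Members and lists were chosen with earlier results of these data known. Members were named by rule: tko and bonsai, up to 3 per direction with the smallest p in each comparison, those that fell in 3 or more strains, and the stalk, mRpS29 and mRpL45 for their roles. Others were named to complete a count of 6 or fewer or as values beside a result, after their values were seen.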

Additional observations from a re-analysis of the deposited data

Results flagged for a closer look

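mRpS18A had 7.18 CPM in WT 5, which lay far from the 8.50 to 9.02 CPM of the other WT libraries. It was the 1 such gap among 30 named members examined, and by chance about 1 in 20 groups shows one. Members that differed directly between strains of 1 set numbered 42 for R873W against D234G, 41 for R873W against Y874C, 14 for D234G against Y874C and 15 for JmjC set against A224T and L854F averaged.

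Transcripts of the male reproductive tract, a tissue that heads do not hold, summed to 824 CPM in D234G 1 and 570 CPM in D234G 3, and to 14, 142 and 376 CPM in R873W 1, 2 and 3, against at most 1.02 CPM in WT. D234G 2 had 0.818 CPM. Their part in the member counts was not tested beyond leaving libraries out.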

How the results depend on the processing

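Of 236 alternative settings of the member counts 152 stayed within 1.5 times the main count, and of 600 for named members 482 kept direction and call, 118 lost the call and 0 reversed. Leaving out 1 library gave, against all WT, 1 to 9 members in A224T, 3 to 7 in L854F, 8 to 24 in JmjC, 6 to 24 in D234G, 22 to 34 in R873W and 2 to 14 in Y874C. Against same-set WT it gave 2 to 5, 3 to 5, 3 to 12, 3 to 7, 31 to 42 and 4 to 8 in the same order, and 22 to 38 between the WT sets. For the F-tests it gave 39 to 54 in set 1 and 4 to 9 in set 2, for R873W 31 to 39 against D234G and 23 to 48 against Y874C, for D234G against Y874C 11 to 15, and for JmjC against the mean 4 to 12. Library totals alone gave 1 (A224T) and 5 (JmjC) against all WT, 11 (A224T, same-set), 5 (set 2 F-test) and 4 (JmjC against the mean). No filter gave 3 (A224T) and 6 (Y874C) against same-set WT and 9 (JmjC against the mean). DESeq2 gave 6 (A224T) and 5 (L854F) against all WT. A fit of only WT and the strain gave 1 (A224T, L854F and Y874C) and 4 (JmjC and D234G), and 1 set alone gave 3 (D234G and Y874C, same-set). Without D234G 1 and 3 the counts were 2 against all WT, 1 against same-set WT, 23 (R873W against D234G) and 3 (D234G against Y874C). Without D234G 1 and 2 they were 2, 3 and, against Y874C, 5. Without R873W 2 and 3 they were 19 against all WT and 22 against Y874C. The cause of these moves was not tested.

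Replicate numbers are not said to mark a batch, and only 2 of 27 same-numbered pairs of 1 set correlated above 0.1 (lowest -0.58). A block on replicate number gave, against all WT (replicates 1 to 3 of each group), 16 members in A224T, 18 in L854F, 35 in JmjC, 8 in D234G and 4 in Y874C. This fit also drops WT 4 and WT 5, so that WT 3 is its only WT library of set 2. Its counts therefore do not show the block alone. Against same-set WT the block gave 2 in D234G and 2 in Y874C, in the set 1 F-test 21, and 2 for R873W and 4 for D234G against Y874C. No paired analysis was possible for set 2 against WT 3 to 5 because they share 1 number. The Ribo-Seq count test, its block and its left-out libraries were not run. The shallow D234G 1 and D234G 2 limit what can be detected in D234G.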
